A study of Mus musculus with 6 samples.

Results

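The 78 genes described here carry the symbols of mitochondrial ribosomal proteins, Mrpl or Mrps followed by a number. Every such symbol present in both deposited gene tables was taken, pseudogene symbols left out. The genes are 78 of the 17296 symbols that the tables share. Among them, Mrps36 encodes no ribosomal subunit, and 5 proteins of this ribosome with other symbols are not included. They were measured in 6 single-cell RNA libraries of mouse neural tube organoids, grown in Matrigel from single mouse embryonic stem cells of a double reporter line for Sox1 and T (Brachyury). All 6 libraries share the same start: activin-A and basic fibroblast growth factor were present up to day 3 and absent afterwards. Organoids grown for longer than 6 days each received a drop of fresh Matrigel. The groups are elongated organoids at day 6 (2 libraries, replicates 1 and 2), non-elongated organoids at day 6 (1 library), and elongated organoids at day 7, day 8 and day 10 (1 library each). The deposited cell table of day 6 names its libraries NENT and SENT without spelling them out. They were read by their initials as non-elongated and as elongated replicate 1, and every value that sets those libraries apart rests on that reading. The labels do not say how many organoids or separate cultures a library pools, and every library comes from the same reporter cells.

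Mitochondria keep their own genome, and the few proteins it encodes are core subunits of the respiratory chain. A dedicated ribosome inside the organelle makes them. Its RNAs come from the mitochondrial genome, and all of its proteins are made in the cytosol from nuclear genes and imported. It descends from a bacterial ribosome, and it carries mitochondria-specific proteins besides those with a bacterial homologue. The small subunit reads the messenger, and the large subunit joins amino acids and passes the chain out at the inner membrane. In neural development, the balance between glycolysis and respiration is known to shift as progenitors leave the cycle and become neurons.

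Of the 78 members, 49 carry Mrpl and 29 carry Mrps symbols. By place in the ribosome, 26 belong to the small subunit and 51 to the large subunit. The large subunit count includes Mrps30 and Mrps18a, which sit there despite their names. Mrps36 is kept apart, because its product is a subunit of the 2-oxoglutarate dehydrogenase complex. By descent, 48 have a bacterial homologue and 29 are mitochondria-specific.

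The libraries held 2076 to 3677 cells and 74072752 to 152742819 UMIs (unique molecular identifiers, counts of captured RNA molecules). Median UMIs per cell were 34854.5 and 59014 in elongated replicates 1 and 2, and 22053 at day 10, the shallowest library. The cell barcodes that any pair of libraries shared numbered 1 to 4. Replicate 1 and the non-elongated library lie in one deposited table, and the other 4 libraries in the second; the duplicates thus differ in batch and in table. Of the 5 genes listed as neural progenitor markers none was at 0 in any library, and the same held for the 5 neuron markers. P-values of the comparisons between groups measure the spread between these 2 duplicates, which may be technical. Those of the line over day measure the scatter of 5 libraries around it. UMIs were summed over cells, so fewer cells of a type and less RNA per cell cannot be told apart in these sums.

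The stretches before the genes' starts were read for 69 members from RefSeq promoters (build GRCm38.p6), over windows of 300 bases. The letters CCGGAAG, a core bound by ETS factors such as GABP, stood on either strand in 26 of 69 members (37.7%), against 17.6% of 12259 tested genes and 9.93% of all 27025 genes with a window. AAGATGGCG, the core of YY1 sites, stood in 8 members (11.6%, against 3.01% and 1.64%). The palindrome bound by NRF1, GCGCA followed by TGCGC, stood in 3 members (4.35%, against 2.02% and 1.07%). These factors are textbook regulators of nuclear genes for mitochondrial proteins, and a match of letters is a description, not a site. All were searched on both strands, and CCGGAAG ends in the AAG with which AAGATGGCG begins, so their matches can overlap. The E-box CACGTG was in 5 members (7.25%, against 11.2% of tested genes), CCAAT in 27 (39.1%, against 42.7%) and the GC box GGGCGG in 34 (49.3%, against 65.9%).

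Below are the 250 bases before the start of 6 members, 5′ to 3′ on the gene's strand, with the 3 motifs in capitals. Mrps18b, Mrpl45 and Mrpl17 are shown because they had the lowest day 10 values among members with a window and were called under each scaling tried. Mrpl34 is shown because it had the highest value, and Mrpl36 and Mrpl32 as holders of the YY1 and the NRF1 letters. Mrps18b has no capitals because its ETS letters stand after the start, outside the printed stretch, and the printed stretch of Mrpl45 holds none of the 3 motifs.
Mrps18b, chr17:35916441-35916690, minus strand: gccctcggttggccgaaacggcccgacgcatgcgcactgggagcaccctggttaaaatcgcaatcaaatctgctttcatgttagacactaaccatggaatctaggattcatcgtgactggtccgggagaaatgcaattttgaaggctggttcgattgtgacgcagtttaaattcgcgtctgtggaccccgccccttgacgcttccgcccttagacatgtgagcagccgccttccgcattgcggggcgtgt
Mrpl45, chr11:97315466-97315715, plus strand: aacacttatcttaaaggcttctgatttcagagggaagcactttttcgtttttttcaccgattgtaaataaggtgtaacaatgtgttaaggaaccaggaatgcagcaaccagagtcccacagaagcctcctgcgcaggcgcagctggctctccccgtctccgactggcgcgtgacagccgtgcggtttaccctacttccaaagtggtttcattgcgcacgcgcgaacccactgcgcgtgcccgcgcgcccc
Mrpl17, chr7:105811088-105811337, minus strand: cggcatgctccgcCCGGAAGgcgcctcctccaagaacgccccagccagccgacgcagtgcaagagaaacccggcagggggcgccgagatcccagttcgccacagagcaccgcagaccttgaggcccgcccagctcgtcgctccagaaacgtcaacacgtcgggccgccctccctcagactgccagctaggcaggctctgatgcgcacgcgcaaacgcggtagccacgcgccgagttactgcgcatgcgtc
Mrpl34, chr8:71464676-71464925, plus strand: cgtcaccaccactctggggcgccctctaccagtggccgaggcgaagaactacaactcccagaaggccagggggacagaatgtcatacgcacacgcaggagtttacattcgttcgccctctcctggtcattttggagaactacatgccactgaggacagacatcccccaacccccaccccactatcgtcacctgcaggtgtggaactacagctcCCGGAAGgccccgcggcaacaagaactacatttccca
Mrpl36, chr13:73330759-73331008, plus strand: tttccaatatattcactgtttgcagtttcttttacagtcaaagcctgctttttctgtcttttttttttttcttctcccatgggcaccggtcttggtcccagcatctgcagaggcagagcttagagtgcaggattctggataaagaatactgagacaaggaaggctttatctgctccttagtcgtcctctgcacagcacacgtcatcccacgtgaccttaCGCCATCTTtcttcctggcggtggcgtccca
Mrpl32, chr13:14613038-14613287, minus strand: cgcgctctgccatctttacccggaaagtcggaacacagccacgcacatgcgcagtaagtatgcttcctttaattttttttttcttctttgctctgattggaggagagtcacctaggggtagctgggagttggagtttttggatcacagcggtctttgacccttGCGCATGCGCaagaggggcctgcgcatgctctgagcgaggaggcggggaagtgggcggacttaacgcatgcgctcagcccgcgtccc

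Set beside the change at day 10 against elongated day 6, described further on, members with the ETS letters were called about as often as those without. Their median log2 fold change was -0.36 over 26 members, with 5 called lower, and that of the 43 members without was -0.56, with 8 called lower. The 8 members with the YY1 letters had a median of -0.75, with 1 called lower. No test was made of these splits.

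Summed over all members, the genes took 0.809% of UMIs in elongated replicate 1 and 0.805% in replicate 2. The share was 0.853% in the non-elongated library, 0.809% at day 7, 0.779% at day 8 and 0.705% at day 10. The day 10 library was thus the lowest of the 6 and the non-elongated one the highest, while day 7 lay beside the duplicates. Large subunit genes took 0.552% and 0.554% in the duplicates and 0.480% at day 10. Small subunit genes took 0.241% and 0.237%, and 0.215% at day 10.

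One member bore on these sums by its table. Mrpl53, a mitochondria-specific large subunit protein, had 16 and 14 UMIs in replicate 1 and the non-elongated library, or 0.219 and 0.202 CPM (UMIs relative to library size, scaled by edgeR's TMM factors). In replicate 2 and at days 7, 8 and 10 it had 139, 118, 120 and 104 CPM. Both libraries of one table were near 0 and all 4 of the other were not. In all, 9 of the genes tested were under 1 CPM in both libraries of the day 6 table and over 20 CPM in the other 4, and Mrpl53 was the only member among them. Its exons overlap those of Gm42688 on the same strand, and whether that bears on its counts was not tested. Its duplicates differed by 9.19 on the log2 scale, and no comparison called it. Without it the shares were 0.809% and 0.792% in the duplicates, 0.853% non-elongated, 0.797%, 0.766% and 0.693% at days 7, 8 and 10.

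Over the members as a whole, the duplicates showed little shift in either direction. Replicate 2 over replicate 1 had a median log2 ratio of -0.04 over the members, with 35 higher and 43 lower. Single members differed by more than this median. After Mrpl53, Mrpl52 was furthest up at 0.55, and Mrps30 furthest down at -0.48.

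**Figure D1:**
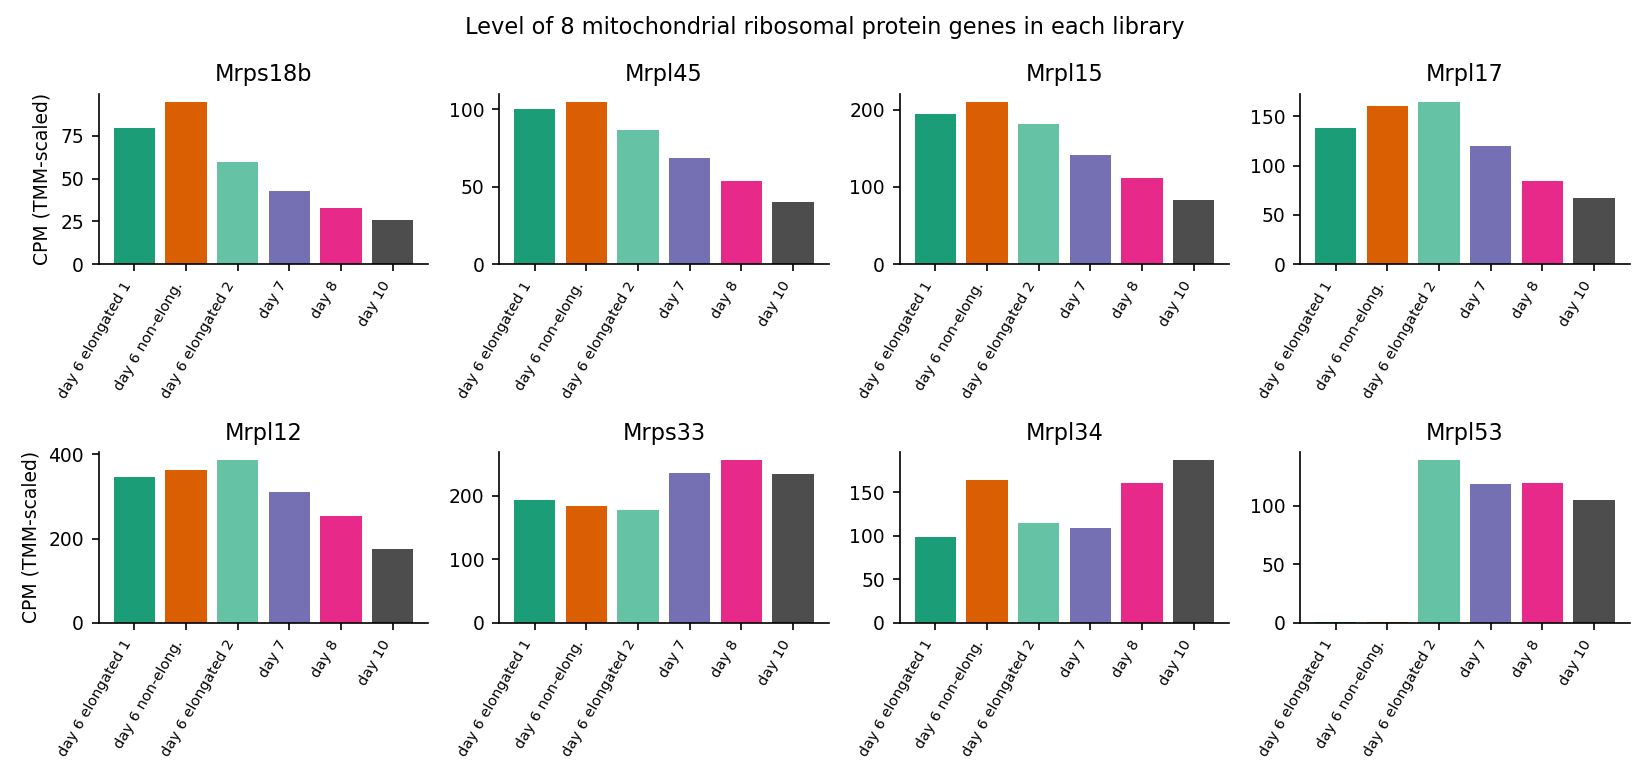
Level of 8 members in each of the 6 libraries (bars, vertical axis in CPM scaled by TMM, starting at 0; each panel has its own scale). Mrps18b, Mrpl45, Mrpl15, Mrpl17 and Mrpl12 are lowest at day 10, Mrpl34 is highest there, Mrps33 is highest at day 8, and Mrpl53 is near 0 in replicate 1 and the non-elongated library.

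Non-elongated against elongated organoids at day 6 asks whether the form of the organoid goes with a different level of these genes. No member was called at a false discovery rate (FDR) under 0.05 by edgeR's quasi-likelihood test, where 0% of 16379 genes were. At an unadjusted p under 0.05 there were 2 members, Mrpl34 and Mrpl53, beside 1137 of 16379 genes. DESeq2 called 0 members, where it called 0.775% of all genes. The median log2 fold change of the members was 0.08, with 57 above 0 and 21 below, beside -0.01 over all genes tested. The non-elongated library lay above both elongated replicates for 40 of 78 members (51.3%; all genes 34.2%) and below both for 9 (11.5%; all genes 33.8%). The counts were the same with library totals alone, where all genes gave 32.8% and 34.7%.

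Mrpl34, a large subunit protein with a bacterial homologue, had 98.6 and 115 CPM in elongated replicates 1 and 2 and 164 CPM when non-elongated. Its log2 fold change was 0.62 ± 0.26 (SE; edgeR adjusted p = 0.700). Mrps18b had 79.6 and 59.7 CPM in the duplicates and 94.9 CPM non-elongated, a log2 fold change of 0.45 ± 0.28 that was not called. For both genes the non-elongated value stood above both duplicates. Mrpl13, Mrpl37 and Mrpl16, all of the large subunit, followed with 0.35, 0.33 and 0.31. Apart from Mrpl53, the lowest values were -0.24 for Mrpl58, a peptidyl-tRNA hydrolase that joined the large subunit, and -0.14 for both Mrpl47 and Mrpl23.

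The non-elongated library also differed in its makeup of cell classes, which the authors assigned. Caudal epiblast cells numbered 1014 of 2225 there and 378 of 2076 in elongated replicate 1. The members took 0.886% and 0.881% of UMIs in that class in these 2 libraries, the highest share of any class with at least 50 cells. The 5 epiblast markers, none at 0, summed to 499 CPM in the non-elongated organoids and to 207 and 215 CPM in the duplicates. For the 5 epithelium markers these sums were 862, 257 and 132 CPM. Within neural progenitors (hindbrain, midbrain and spinal cord cells, in replicate 2 named mid/hindbrain and spinal cord) Mrpl34 had 110 CPM non-elongated. That was above replicate 1 of the same table, at 85.0 CPM, and below replicate 2 of the other table, at 113 CPM. In hindbrain cells alone, scaled by their own totals, it had 76.4 CPM in replicate 1 and 112 CPM non-elongated. Within the progenitor pools, the members' median log2 fold change was 0.05. In edgeR, 1 member had an unadjusted p under 0.05, beside 516 of 15697 genes. Neither edgeR nor DESeq2 called a member (0 each), where edgeR called 0% and DESeq2 0.0764% of 15697 genes. The part of cell makeup in the whole-library values was not tested further.

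Before day 10, the test of edgeR with TMM scaling called no member in the elongated organoids. At day 7, edgeR called 0 members where it called 3.99% of all genes. Its unadjusted p was under 0.05 for 2 members, beside 2915 of 16379 genes. DESeq2 called 0 members, where it called 5.98% of all genes. The median log2 fold change against elongated day 6 was -0.15, with 20 members above 0 and 58 below. With library totals alone it was -0.033, with 34 above and 44 below, beside 0.11 over all genes. The lowest were Mrps18b (-0.71), Mrpl24 (-0.64), Mrps34 (-0.54), Mrps30 (-0.51) and Mrps10 (-0.48). Apart from Mrpl53, the highest were Mrpl33 (0.51), Mrpl58 (0.47), Mrpl41 (0.43) and Mrps33 (0.35). At day 8, edgeR called 0 members where 13.4% of all genes were called. Its unadjusted p was under 0.05 for 11 members, beside 4815 of 16379 genes. DESeq2 called 6, all lower, where it called 14.3% of all genes, and edgeR with RLE size factors called 1, where it called 15.4%. The median was -0.28, with 14 members above 0 and 64 below, and with library totals alone -0.14, with 24 above and 54 below, beside 0.13 over all genes. Mrps18b was lowest at day 8 with -1.07 ± 0.30 (edgeR adjusted p = 0.0541), followed by Mrpl17 (-0.85), Mrps34 (-0.83), Mrps36 (-0.80) and Mrpl45 (-0.80). On the high side were Mrpl34 (0.59), Mrpl33 (0.53), Mrpl58 (0.49) and Mrps33 (0.47), with Mrpl53 again left aside.

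At day 10, 16 of the 78 members (20.5%) fell and none rose at FDR under 0.05 in edgeR. Of all 16379 genes, 26.4% were called, 12.3% lower and 14.1% higher. The members' median log2 fold change was -0.55, beside -0.01 over all genes, with 70 members below 0 and 8 above. At day 10, 68 of 78 lay below both elongated replicates (87.2%; all genes 43%) and 6 above both (7.69%; all genes 43.5%). With library totals alone, which move the median of all genes to 0.24, the members' median was -0.30 and 5 were called: Mrps18b, Mrpl45, Mrpl15 and Mrpl17 lower, and Mrpl34 higher, where 26.7% of all genes were called. Under that scaling 56 members lay below both replicates (71.8%; all genes 34%) and 14 above both (17.9%; all genes 53%). With RLE scaling 22 were called, 21 lower and Mrpl34 higher (adjusted p = 0.0494), where 28.7% of all genes were. DESeq2 called 30, with all 16 among them, 29 lower and Mrpl34 higher, where it called 25.2% of all genes.

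**Figure D2:**
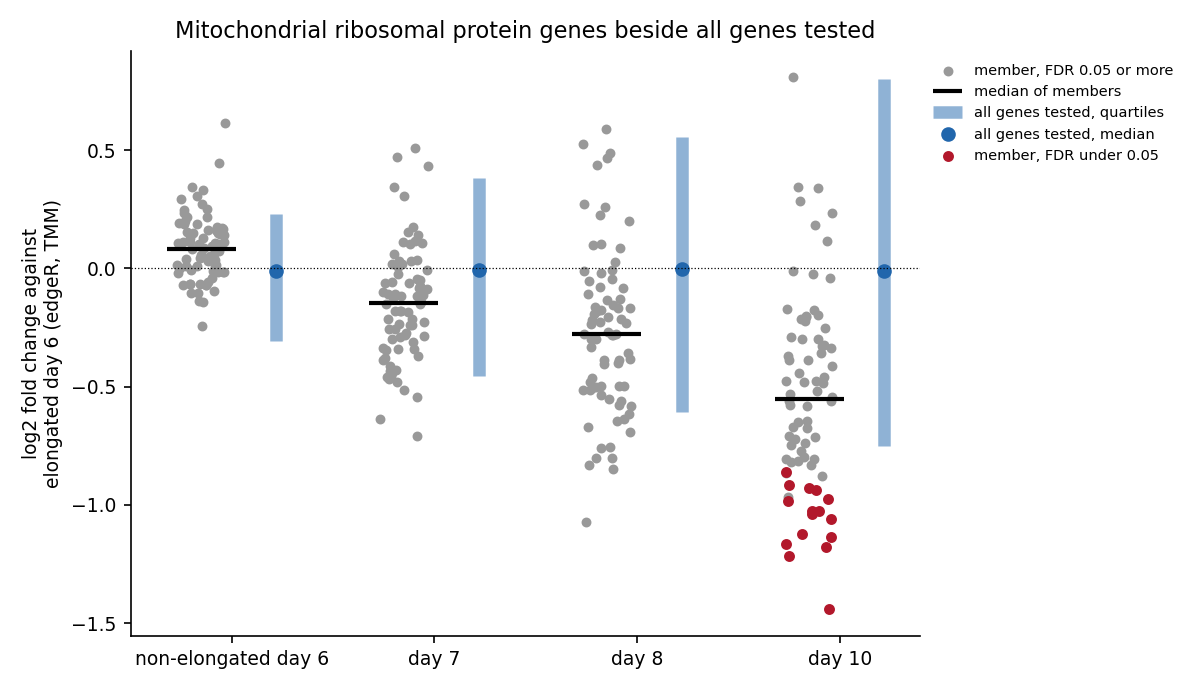
Log2 fold change against elongated day 6 in edgeR (vertical axis) for 77 members, with Mrpl53 left off, in 4 comparisons (horizontal axis); points are members, red where the FDR is under 0.05. Black lines give the median of all 78 members, and blue bars and dots the quartiles and median of all genes tested. The member medians are 0.08, -0.15, -0.28 and -0.55, and the red points lie at day 10 alone. The 4 comparisons share the day 6 libraries.

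The 16 were spread over both subunits: 8 of the small, 7 of the large, and Mrps36. Their log2 fold changes ran from -1.44 to -0.86, with adjusted p from 0.0131 to 0.0486. Among them, 8 have a bacterial homologue and 7 are mitochondria-specific. All 16 were below both duplicates at day 10, and 14 of them declined at every step from replicate 2 through days 7, 8 and 10. The 16 were picked by their day 10 values against these duplicates, so both counts follow in large part from that choice.

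In the small subunit, Mrps18b was lowest. It is 1 of 3 mammalian homologues of a single bacterial protein, encoded on chromosome 17 (GRCm38, 35910379 to 35916389, minus strand). Its levels were 79.6 and 59.7 CPM in the duplicates, then 42.6, 33.1 and 25.6 CPM at days 7, 8 and 10. Its day 10 level was 0.368 times the duplicates' mean, a log2 fold change of -1.44 ± 0.30 (SE; adjusted p = 0.0131). The other homologues did not pass: Mrps18a, which sits in the large subunit, had -0.48 (adjusted p = 0.238) and Mrps18c had -0.20 (adjusted p = 0.599). Whether the 3 differ from each other was not tested.

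Mrps27, a pentatricopeptide repeat protein specific to mitochondria, had 27.1 and 35.9 CPM in the duplicates and 14.5 CPM at day 10 (log2 fold change -1.12 ± 0.33, adjusted p = 0.0407). Mrps34, also mitochondria-specific, had 97.2 and 99.8 CPM and then 67.6, 55.4 and 48.0 CPM. In both genes day 10 lay well under the closer duplicate. The exons of Mrps34 overlap those of Nme3 on the same strand, so its count is uncertain where reads could not be split. Mrps35 (-1.03), Mrps2 (-1.03), Mrps25 (-0.94), Mrps12 (-0.92), a protein of the decoding centre, and Mrps16 (-0.86) also fell.

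In the large subunit, Mrpl45 lies at the exit of the peptide tunnel and holds the ribosome to the inner membrane. It is encoded on chromosome 11 (97315716 to 97329920, plus strand). It had 100 and 86.5 CPM in the duplicates, then 68.7, 53.5 and 40.1 CPM, and fell by 1.22 ± 0.28 on the log2 scale (adjusted p = 0.0175). Mrpl15, a protein with a bacterial homologue, had 195 and 182 CPM, then 142, 111 and 83.3 CPM (adjusted p = 0.0177). Mrpl17, likewise, had 138 and 165 CPM, then 120, 84.0 and 67.5 CPM (adjusted p = 0.0218). All 3 stepped down at each day, and their day 10 levels were 0.430, 0.442 and 0.446 times the duplicates' mean. Mrpl16 (-1.14), Mrpl44 (-0.99), which resembles ribonuclease III, and Mrpl40 (-0.98) fell as well.

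The stalk of the large subunit recruits translation factors. Of its 3 proteins, Mrpl12 had 347 and 387 CPM in the duplicates, then 311, 253 and 176 CPM, and fell by 1.06 ± 0.27 on the log2 scale (adjusted p = 0.0249). Mrpl10 had -0.67 (adjusted p = 0.106) and Mrpl11 -0.56 (adjusted p = 0.152), so neither passed. Those 2 were named after their values were seen. Mrps36, the member outside the ribosome, had 174 and 157 CPM in the duplicates and 87.0 CPM at day 10 (log2 fold change -0.93, adjusted p = 0.0405). Members just past the threshold were Mrpl42 (-0.86, adjusted p = 0.0512), Mrpl34 (0.81, adjusted p = 0.0532), Mrps30 (-0.97, adjusted p = 0.0535), Mrpl49 (-0.82, adjusted p = 0.0543) and Mrps28 (-0.88, adjusted p = 0.0548).

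Besides Mrpl53, 7 members had a log2 fold change above 0 at day 10. Mrpl34, encoded on chromosome 8 (71464959 to 71465747, plus strand), had 98.6 and 115 CPM in the duplicates, then 109, 161 and 187 CPM. It was above both duplicates from day 8 on. Mrps33, a mitochondria-specific small subunit protein, had 193 and 177 CPM, then 235, 256 and 235 CPM (log2 fold change 0.34, adjusted p = 0.344). Mrpl33 (0.34), Mrpl41 (0.28), Mrps24 (0.23), Mrpl58 (0.18) and Mrpl52 (0.12) completed the set. None of the 7 passed in edgeR with TMM scaling, and Mrpl34 passed with RLE scaling and with library totals alone. Exons of Mrpl33 overlap Gm43809, and those of Mrps24 overlap Urgcp, on the same strand. Mrps6, whose exons overlap Slc5a3 and Gm49711, had 55.2 and 53.8 CPM in the duplicates and 53.6 CPM at day 10, close to the lower duplicate. The remaining members with such overlaps are Mrpl3 (Gm38077), Mrpl51 (Mir3098), Mrpl53 and Mrps18c (Gm43511), so 8 in all. Another 28 of the 78 overlap exons of a gene on the opposite strand, and whether counting used strand is not given in the sources used here.

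A straight line over day through the 5 elongated libraries gave 35 calls among the members, 34 lower and Mrpl34 higher. Of all genes, 23.8% were called, 12.5% lower and 11.3% higher. The members' median slope was -0.14 per day on the log2 scale, beside 0.00 over all genes. All 16 genes called at day 10 were among the 35. The line uses the same day 6 and day 10 libraries, so this overlap is no separate support. Mrpl34 rose by 0.22 per day (edgeR adjusted p = 0.0300) and Mrps18b fell by 0.37 per day (adjusted p = 0.0213). Beyond Mrpl34 and those 16, the members with the steepest lines were Mrps30 (-0.24), Mrps28, Mrpl1, Mrpl42 (each -0.22), Mrpl36 (-0.21), Mrpl22 (-0.21) and Mrpl49 (-0.20). Leaving out libraries moved the count. Without replicate 2 it was 0, where 0% of all genes were called either. It was 13 without replicate 1 (all genes 11.1%), 24 without day 7 (19.2%), 10 without day 8 (14.9%) and 5 without day 10 (11.1%). Mrpl34 was called in none of those 5 fits. With library totals alone the count was 15, Mrpl34 among them, where 23.9% of all genes were called. The median slope stayed between -0.14 and -0.13 in those 5 fits.

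From replicate 2 through days 7, 8 and 10, all of 1 table, 46 of 78 members were lower at every step (59%; all genes 17.5%) and 0 were higher at every step (all genes 17.4%). With library totals alone the counts were 28 (35.9%; all genes 11.2%) and 1 (1.28%; all genes 23.9%). This second scaling was chosen after seeing the data. Median UMIs per cell fell over the same 4 libraries, from 59014 to 48466, 31471 and 22053. Median mitochondrial shares per cell rose, from 4.10% to 4.35%, 5.35% and 5.81%. Their part in these counts was not tested. The steps between single libraries gave no calls. Day 8 against day 7 had 0 members called by edgeR, where 0.421% of all genes were. It had 0 members at an unadjusted p under 0.05, beside 1440 of 16379 genes, and a median of -0.10. Its lowest values were those of Mrpl16 (-0.54), Mrpl17 (-0.51) and Mrps2 (-0.51), and its highest that of Mrpl34 (0.56). Day 10 against day 8 also had 0 called, where 0.195% of all genes were. It had 0 members at an unadjusted p under 0.05, beside 1666 of 16379 genes. Its median was -0.29, with 75 of 78 below 0, from Mrps25 at -0.61 and Mrpl12 at -0.52 to Mrpl34 at 0.22. DESeq2 called 0 members in either step, where it called 1.8% and 1.72% of all genes.

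Neurons appeared over the same days. The 5 neuron markers, none at 0 in any library, summed to 163 and 165 CPM in the duplicates, 132 at day 7, 685 at day 8 and 2456 at day 10. The 5 neural crest markers summed to 10.5 and 3.16 CPM in the duplicates and 46.4 CPM at day 10. Epiblast markers went from 207 and 215 CPM in the duplicates to 12.2 CPM at day 10, with 1 of the 5 at 0 there, and epithelium markers from 257 and 132 to 17.1 CPM. The epiblast classes had the highest member shares at day 6, as given further on, and their part in the day 10 values was not tested. The authors' dorsal interneuron classes held 1176 of 3677 cells at day 10 and 272 of 3337 at day 8. Median mitochondrial shares per cell were 5.25% and 4.10% in the duplicates and 5.81% at day 10. The comparison was therefore repeated within neural progenitor classes alone (hindbrain, midbrain and spinal cord in the day 6 table; mid/hindbrain, spinal cord, proliferative progenitors and dP1 in the other). Cells of dP2/3 and of the neural crest were in neither pool. The pools were not alike. They held 1333 of 2076 cells in replicate 1 and 2304 of 2402 in replicate 2, whose table names no epiblast class. At day 10 the pool of 1691 cells included 270 dP1 and 158 proliferative cells, classes absent from both duplicates. Cell type was therefore not held constant.

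Within progenitors, 4 members fell at day 10 in edgeR and none rose, where 15.8% of 15697 genes were called 7.59% lower and 8.18% higher. They were Mrps18b (-1.38, adjusted p = 0.0230), Mrpl17 (-1.09, adjusted p = 0.0418), Mrps34 (-1.07, adjusted p = 0.0378) and Mrpl45 (-1.02, adjusted p = 0.0462). DESeq2 called 11, these 4 among them, 10 lower and 1 higher, or 14.1% of members where it called 16.1% of all genes. The median log2 fold change was -0.41, with 67 members below 0 and 11 above. Mrps18b had 76.5 and 58.9 CPM in the duplicates, then 42.3, 33.4 and 26.0 CPM, nearly its whole-library levels. Mrpl12 had 324 and 385 CPM and then 315, 269 and 213 CPM, which did not pass (-0.74, adjusted p = 0.104). Mrpl34 had 85.0 and 113 CPM, then 109, 157 and 184 CPM (0.90, adjusted p = 0.0671).

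The earlier days gave 0 calls within progenitors in edgeR. At day 7, where edgeR called 2.38% of genes, 1 member had an unadjusted p under 0.05, beside 2392 of 15697 genes. DESeq2 called 0 members there and 4.15% of genes. Day 8 had 7 members at that edgeR p, beside 4039 genes, where edgeR called 9.19% of genes. DESeq2 called 1 member there and 10.2% of genes. Day 8 against day 7 and day 10 against day 8 had 0 members called in edgeR, which called 0.0127% and 0.051% of genes. DESeq2 also called 0, where it called 0.924% and 0.714% of genes. At that edgeR p there were 0 members, beside 1037 and 763 genes. In the mid/hindbrain class taken alone, scaled by its own total, day 10 lay below replicate 2 in 54 members and above it in 24. The median log2 ratio was -0.19 there, beside 0.07 over all genes, with 1 library on each side and no test.

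Across cell classes with at least 50 cells in a library, the members' share of UMIs ran from 0.646% in dI1 interneurons at day 10 to 0.886% in caudal epiblast cells of the non-elongated library. These classes were made from the expression of the same cells, so class against class is a description. Caudal epiblast exceeded hindbrain in 61 of 78 members in both libraries of the day 6 table (78.2%; all genes 33.7%). Anterior epiblast, at 0.867% and 0.865%, exceeded hindbrain in 45 (57.7%; all genes 32.5%). Mrpl34 showed the widest gap that held in both libraries: 135 CPM in caudal epiblast against 76.4 in hindbrain in elongated replicate 1, and 194 against 112 CPM in the non-elongated library. Mrps6 went the other way, with log2 ratios of -0.30 and -0.10.

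Surface ectoderm was the class that moved most between those 2 libraries, from 0.699% (95% interval 0.692 to 0.707) in the elongated to 0.821% (0.814 to 0.829) in the non-elongated one. The intervals are exact binomial ones and cover counting error only. Hindbrain moved from 0.782% to 0.821%. With 1 library on each side there is no test of either.

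**Figure D3:**
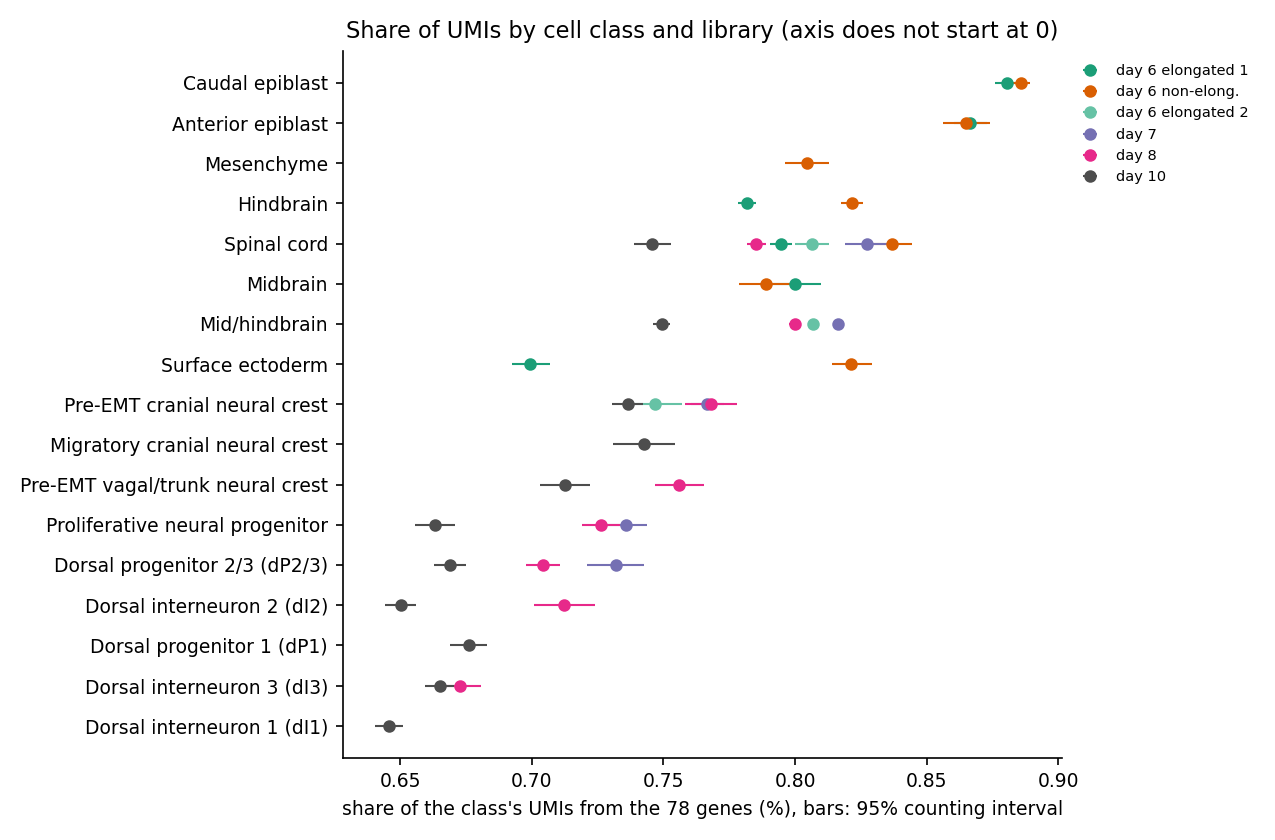
Share of each class's UMIs that came from the 78 genes (horizontal axis, percent, not starting at 0) for the authors' cell classes with at least 50 cells in a library (rows); colours are libraries and bars 95% exact binomial intervals. Epiblast classes lie at 0.865% or above, and the dorsal interneurons at 0.712% or below.

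Among the later classes, mid/hindbrain cells held 0.807%, 0.816%, 0.800% and 0.749% in replicate 2 and at days 7, 8 and 10. Spinal cord cells held 0.806%, 0.827%, 0.785% and 0.746% in the same libraries. Both classes were lowest at day 10. Proliferative neural progenitors held 0.736%, 0.726% and 0.663% at days 7, 8 and 10, and were below mid/hindbrain in 57 of 78 members at both day 8 and day 10 (73.1%; all genes 37.3%). Migratory and pre-migratory cranial neural crest held 0.742% and 0.736% at day 10.

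At day 10, dI1, dI2 and dI3 interneurons held 0.646%, 0.650% and 0.665%, and dP1 and dP2/3 progenitors 0.676% and 0.669%. Pooled neurons held 0.691% at day 8 and 0.654% at day 10, against 0.791% and 0.732% in pooled progenitors of the same libraries. Most cells of that progenitor pool were mid/hindbrain, 1746 of 2617 at day 8 and 1035 of 1691 at day 10. At day 8, dP2/3, outside the pool, held 0.704%, beside 0.712% in dI2 and 0.673% in dI3. Proliferative progenitors at day 10, with 0.663%, lay below dI3. A low share was thus not confined to neurons. The neurons were shallower, with medians of 24479 and 19948.5 UMIs per cell against 33195 and 24381. Of the members, 50 were lower in neurons in both libraries (64.1%; all genes 36.6%) and 16 higher in both (20.5%; all genes 42.2%). The median log2 ratios were -0.25 at day 8 and -0.21 at day 10, beside 0.00 and 0.04 over all genes.

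The gap differed widely between members. Mrps25, a mitochondria-specific small subunit protein, had 42.5 CPM in neurons and 85.0 CPM in progenitors at day 8, and 32.4 and 68.4 CPM at day 10. Mrpl12 had 151 against 277 CPM, and 148 against 226 CPM. These genes, with Mrpl13, Mrpl28, Mrpl42, Mrps14, Mrps27 and Mrps35, were the 8 members more than 0.5 lower in both libraries on the log2 scale (10.3%; all genes 15.3%), and 0 were more than 0.5 higher (all genes 18.5%).

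On the other side, Mrps36 had 131 CPM in neurons and 96.7 CPM in progenitors at day 8, and 116 and 94.3 CPM at day 10. Mrpl32, Mrps10 and Mrpl34 were also higher in neurons on both days, Mrpl34 with 258 against 196 CPM at day 10. Mrps18b, the member with the lowest day 10 value, had 34.2 and 34.3 CPM at day 8, and 30.3 and 27.6 CPM at day 10. These levels were nearly the same in both pools. Mrps25 and Mrpl12 thus were lower both in neurons and at day 10, and Mrps18b and Mrps36 were lower at day 10 without being lower in neurons on both days.

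**Figure D4:**
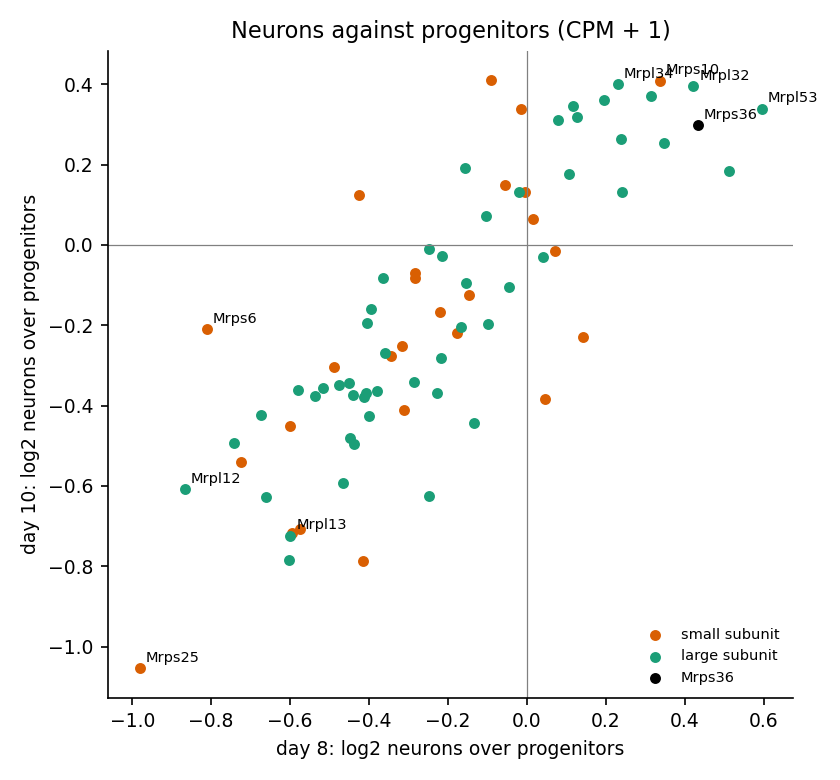
Log2 ratio of CPM plus 1 in neurons over progenitors within the day 8 library (horizontal axis) and the day 10 library (vertical axis), 1 point per member, coloured by subunit. The 50 members in the lower left were lower in neurons in both libraries and the 16 in the upper right higher; Mrps25 is lowest on both axes.

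Members with longer coding sequences had lower day 10 values. Across the 78 genes, Spearman's rho between coding length and the day 10 log2 fold change was -0.46, and -0.30 with transcript length. Genes are not independent replicates, and all values share the same libraries. Over the 14866 of 16379 tested genes with a length (90.8%), rho was 0.12, of the opposite sign. The 26 members with the shortest coding sequences (195 to 480 nucleotides) had a median of -0.24 with 3 called lower and 6 above 0. The 26 of 498 to 753 nucleotides had -0.57 with 6 called lower. The 26 longest (756 to 1326) had -0.71 with 7 called lower and none above 0. Of all genes tested, 12.3% were called lower. By descent, the 48 with a bacterial homologue had a median of -0.54 and the 29 mitochondria-specific ones -0.67. Small and large subunits had medians of -0.56 and -0.53.

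**Figure D5:**
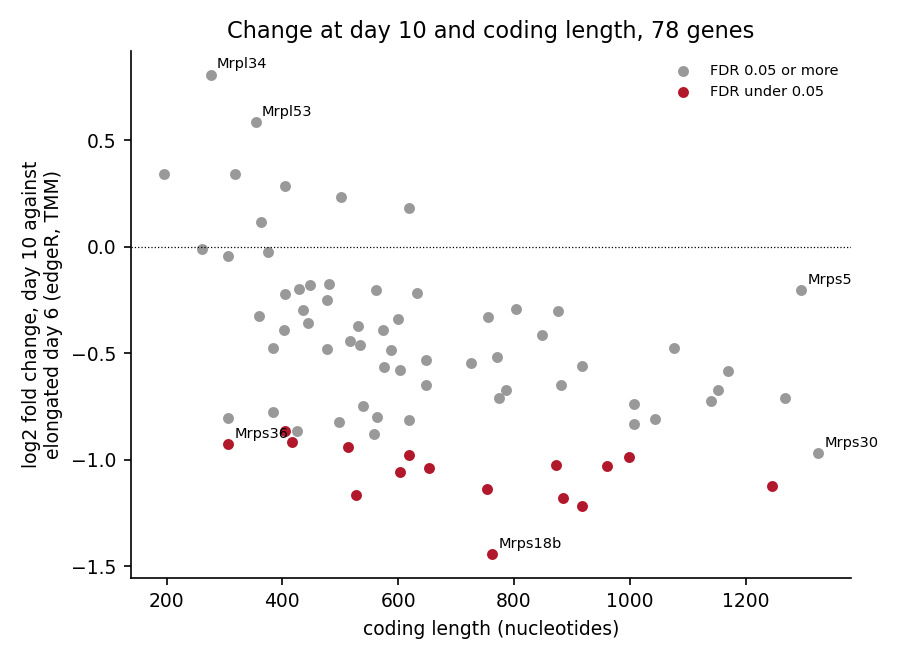
Coding length in nucleotides (horizontal axis) and log2 fold change at day 10 against elongated day 6 in edgeR (vertical axis) for the 78 members, red where the FDR is under 0.05. Mrpl34 is highest and Mrps18b lowest, and all members above 0 have coding sequences of 618 nucleotides or less.

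The rest of the mitochondrial expression machinery was read from lists, in the same day 10 comparison. For every list below, the background is the share over all genes, 12.3% called lower and 14.1% higher. At an unadjusted p under 0.05 there were 6534 of 16379 genes. Calls in these lists were counted with TMM scaling alone, so whether they hold with library totals alone was not tested. The 5 mitoribosome proteins under other symbols (Dap3, Ptcd3, Aurkaip1, Chchd1, Gadd45gip1) had a median of -0.72, all 5 below 0, none called and 3 at an unadjusted p under 0.05. Of 26 ribosome assembly factors, 5 fell and none rose: Rpusd4, a pseudouridine synthase (-1.79), Rcc1l (-1.49), Mrm2, a methyltransferase of the large subunit RNA (-1.36), Fastkd2 (-1.01) and Rbfa, which matures the small subunit. Their median was -0.72. Rpusd4 went from 28.2 and 20.9 CPM in the duplicates to 14.5, 10.3 and 7.10 CPM.

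Of 16 mitochondrial translation factors, 4 fell and none rose. C1qbp, a matrix protein needed for translation, had 501 and 426 CPM in the duplicates, then 330, 246 and 167 CPM (-1.47, edgeR adjusted p = 0.00872). The ribosome recycling factor Mrrf (-1.05) and the elongation factors Gfm1 (-0.95) and Tsfm (-0.86) were the others. Among mitochondrial tRNA synthetases, which load tRNAs with amino acids, Ears2 (-1.66), Yars2 (-1.47) and Tars2 (-1.43) fell and Lars2 rose from 19.0 and 34.7 CPM to 80.9 CPM. Of 24 genes for upkeep and transcription of mitochondrial DNA, 8 fell, among them Tfam (-0.94) and the exonuclease Mgme1 (-2.03), and Ppargc1a rose, from 0.0685 and 0.0425 CPM to 1.16 CPM.

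Lists on the product side differed. The 13 mitochondrially encoded mRNAs, which this ribosome translates, had 0 calls in edgeR, with 0 at an unadjusted p under 0.05, and a median of 0.02, and took 5.22% and 4.15% of UMIs in the duplicates and 5.77% at day 10. The 80 nuclear respiratory chain subunits had 2 higher (Atp5l, Cox6a1) and 2 lower (Cox4i2, Ndufa4l2) and a median of 0.00. They took 2.51% and 2.76% of UMIs in the duplicates and 3.23% at day 10. The duplicates differed by less than their gap to day 10 in this share.

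Cytosolic ribosomal proteins are the larger counterpart. Of 77 tested, 36 fell and none rose, with a median of -0.73, and their share went from 26.2% and 28.6% to 19.7%. In neurons, 77 of 77 were below progenitors in both libraries, where 50 of 78 members were. Of 26 import proteins, 8 fell, with Timm8a1 lowest (-1.95), and none rose. Of the Myc family, Myc fell from 21.8 and 31.0 CPM to 4.65 CPM (-2.50), and Mycn, Mycl and Max were not called. No list was tested against another.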

How the data were processed

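Per the labels, the 6 libraries were 10x 3′ single-cell libraries. Per the submitters' processing notes, Cell Ranger 3.1 and the mm10 genome were used. The deposited matrices hold raw UMI counts per gene and cell. The deposited cell tables give the authors' classes, names of clusters, and the percent of mitochondrial UMIs per cell. All deposited cells were used, so doublet treatment before deposit is not given in the sources used here.

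Counts were summed over the cells of a library and tested with edgeR 4.0.16 (R 4.3.3; limma 3.58.1). Low genes were dropped by filterByExpr (minimum count 10), libraries were scaled by TMM, each group had 1 mean, and the quasi-likelihood test was followed by Benjamini-Hochberg adjustment over all 16379 genes tested. The spread comes from the elongated day 6 duplicates (1 residual degree of freedom, biological coefficient of variation 29.5%). The line over day had 3. DESeq2 1.42.0 was an alternative, with other scalings, filters and left-out libraries. SE is the log2 fold change divided by the square root of F. CPM of whole libraries are TMM-scaled; shares, marker sums, class and neuron values use totals, and their log2 ratios add 1 CPM. Intervals are exact binomial at 95%. Gene positions and lengths come from GENCODE on GRCm38.

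The rule for named genes was, per comparison, members called (up to 25 by size), the members of at least 20 CPM whose log2 fold changes were the 5 highest and 5 lowest, and, whatever their values, Mrps18a, Mrps18b, Mrps18c, Mrpl12, Mrps30, Mrps36, Mrps6 and members overlapping another gene. Where a comparison gave no call, or a line repeated earlier calls, fewer were printed. Genes named just past the threshold, by class, by neuron value or by motif were chosen after their values were seen. The members and lists were chosen with earlier results of these data known. The count for the mitochondrial tRNA synthetase list is not reported here.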

Additional observations from a re-analysis of the deposited data

How the results depend on the processing

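No count or median changed direction under the alternatives run, 85 values stayed within their limits and 22 moved. With library totals alone, the members' median log2 fold change was -0.033 at day 7, -0.14 at day 8, -0.30 at day 10 and -0.18 for day 10 against day 8, and the median slope was -0.078 per day. The same scaling left 5 calls at day 10 and 15 for the slope. At day 8, 1 member was called with RLE scaling, 1 without mitochondrially encoded and cytosolic ribosomal protein genes, and 6 by DESeq2. DESeq2 called 30 at day 10, and within progenitors 1 at day 8 and 11 at day 10. The cause of these differences was not tested.

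Leaving out either duplicate gave medians of -0.19 to -0.13 at day 7, -0.32 to -0.21 at day 8 and -0.60 to -0.51 at day 10, with no test because no residual degrees of freedom remained. Leaving out 1 library from the line over day gave 0 to 24 calls. The fit without Mrpl53 and the pattern counts under library totals were added after seeing the data. No paired analysis was possible because every group but elongated day 6 had 1 library. Calls between groups rest on 1 pair of duplicates that also differ in batch, table and depth, and every other group is 1 library.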
